A study of Metroxylon sagu with 6 samples.

Results

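The Unigenes described here are those whose best Swiss-Prot match is a DEHYDRATION-INDUCED 19 protein, the Di19 family of zinc finger proteins. With no genome in use, the reads were assembled into transcript sequences, each called a Unigene. Of the 99933 Unigenes listed in the series, 19 carried this match. They were found by the protein name in the annotation alone, but the family itself was chosen by a Unigene whose level in these same libraries was already known, Unigene16887_All. Its values and its difference between the palms are therefore a description, and no p-value is given for it. The standard error printed with it comes from the fit and is not used as a test. The abundant members matched to the same rice protein are treated in the same way.

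Leaf tissue of 3 non-trunking sago palms (*Metroxylon sagu*, libraries SN7, SN8 and SN9) was compared with leaf tissue of 3 trunking palms (ST1, ST4 and ST5) taken as control. All palms grew in a plantation on peat soil, and no treatment is named. Each library came from 1 palm, and neither the age nor the genotype of the palms is stated in the sources used here. The palms of each phenotype stood together at a place of their own, so phenotype and place cannot be told apart.

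Di19 proteins are small nuclear proteins with zinc fingers of the Cys2/His2 kind, named after an *Arabidopsis* transcript that accumulates under progressive drought. In *Arabidopsis* they are phosphorylated by calcium-dependent protein kinases, and the founding member activates genes of pathogenesis-related proteins when water is short. Another *Arabidopsis* member, HRB1, works in the response to red and blue light. A rice member takes part in the response to abscisic acid, the hormone of water stress.

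The libraries held between 17927176 and 18492907 expected counts, which are fragments that RSEM assigned to Unigenes. The scaling factors (TMM) lay between 0.824 in SN7 and 1.13 in SN9, so CPM (counts scaled to a common library size) of SN7 are scaled up most. FPKM are fragments scaled for sequence length and library depth, without these factors. With edgeR, the quasi-likelihood test (two-sided) called 0 of 45928 Unigenes (0%) at an adjusted p under 0.05, and 4526 at an unadjusted p under 0.05. At the adjusted level DESeq2 called 1175 of 52929 (2.22%), edgeR's likelihood ratio test 771 and limma on log2(FPKM + 1) 4. Leaf markers were abundant in every library. The small subunit of Rubisco, CL3826.Contig1_All, had between 4732 and 10328 FPKM in non-trunking palms and between 3787 and 7117 FPKM in trunking palms. The summed FPKM of the 52 leaf marker Unigenes was between 21402 and 34922 in non-trunking and between 14997 and 28363 in trunking palms. Of the 48 tested, 3 (6.25%) were higher and 0 lower at an unadjusted p under 0.05 by edgeR, against 5.43% and 4.43% of all tested. Their median log2 fold change, non-trunking minus trunking, was 0.43, against 0.02 for all tested. It was 0.21 without SN7 and 0.67 without ST4. The 6 xylem marker Unigenes, laccases and IRREGULAR XYLEM 15, summed to between 5.93 and 12.3 FPKM in non-trunking and between 3.90 and 7.89 FPKM in trunking palms. They did not share a direction. Laccase-24 (Unigene25736_All) had 3.55, 10.05 and 7.58 FPKM in SN7, SN8 and SN9, against 0.39, 0.53 and 1.51 FPKM in ST1, ST4 and ST5. Laccase-15 (Unigene16998_All) had 0.77 FPKM in SN8 and was not listed in SN7 and SN9, where it was taken as 0. It had 3.09, 0.21 and 1.43 FPKM in ST1, ST4 and ST5. Whether tissue makeup has a part in the results below was not tested.

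The 19 Unigenes fell into 4 types by the rice protein they matched. DI19-1, the rice protein that carries the plain family name, was the best match of 4 Unigenes. DI19-2 was that of 7, DI19-4 of 7 and DI19-6 of 1. In all, 15 were contigs of 4 clusters (CL2900, CL4844, CL7542 and CL7605), which hold overlapping sequences, and 4 stood alone. Their lengths ran from 365 to 3105 nt. The best domain entry was the Di19 zinc-binding domain for 4 of them, the Di19 C-terminal domain for 3 and the Di19 protein family for 10, and 2 had none. The weakest member was Unigene16287_All, whose match to DI19-2 had an E-value of 1.4e-06 and which had no domain entry. All others had an E-value of 1.8e-21 or smaller.

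In 5 members the expected count was a whole number in all 6 libraries, within 0.005. These were Unigene16887_All, CL4844.Contig1_All, CL2900.Contig1_All, Unigene16287_All and Unigene701_All. RSEM gives a fraction where it divides a read between Unigenes. The counts of the other 14 were fractional in at least 4 libraries, and their levels are uncertain to the extent that reads were divided between similar contigs.

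The family was dominated by transcripts of the DI19-1 type, and the 3 abundant ones were lower in the non-trunking palms, while the fitted differences of the other 14 tested members were positive, with none of these past the test after adjustment. Unigene16887_All was by far the most abundant member. It had a mean of 1213 FPKM over the 6 libraries and ranked at place 23 of all listed Unigenes. Its level was 544, 887 and 708 FPKM in SN7, SN8 and SN9, against 2301, 1227 and 1611 FPKM in ST1, ST4 and ST5. Every non-trunking palm lay below every trunking palm, and the gap ran from 887 FPKM in SN8 to 1227 FPKM in ST4. The means were 713 ± 171 FPKM in non-trunking and 1713 ± 544 FPKM in trunking palms (SD, n = 3 each). The log2 fold change, non-trunking minus trunking, was -1.24 (SE 0.40), or 2.35-fold lower. The place of this Unigene among all Unigenes of a library was 107, 31 and 54 in SN7, SN8 and SN9, against 6, 25 and 10 in ST1, ST4 and ST5. All members together took 0.126%, 0.185% and 0.147% of the counts in SN7, SN8 and SN9, against 0.397%, 0.231% and 0.294% in ST1, ST4 and ST5. Unigene16887_All alone took 0.0682%, 0.111% and 0.0888% in SN7, SN8 and SN9, against 0.288%, 0.155% and 0.201% in ST1, ST4 and ST5. In bulk leaf RNA, fewer cells with the transcript and less transcript per cell cannot be told apart.

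CL7605.Contig1_All and CL7605.Contig2_All matched the same rice protein and came next in level. CL7605.Contig1_All stood at 149.6, 282 and 187 FPKM in SN7, SN8 and SN9, against 522, 314 and 434 FPKM in ST1, ST4 and ST5. The groups did not overlap, but on the CPM scale SN8 (375 CPM) and ST4 (382 CPM) nearly met. Its log2 fold change was -1.0 ± 0.36 (SE). CL7605.Contig2_All had 37.7, 79.3 and 47.4 FPKM in SN7, SN8 and SN9, against 152.5, 112 and 128 FPKM in ST1, ST4 and ST5. These groups were clearly apart, and the log2 fold change was -1.22 ± 0.33 (SE). In each of the 3 Unigenes ST1 was the highest of the trunking libraries and ST4 the lowest, and SN8 was the highest of the non-trunking libraries, in FPKM as in CPM. The lowest non-trunking library was SN7 in FPKM and SN9 in CPM.

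**Figure D1:**
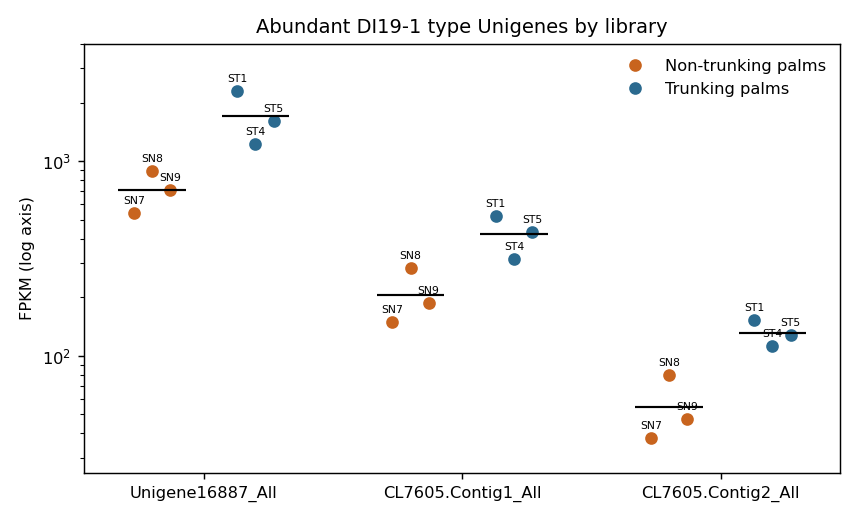
FPKM (log axis) of the abundant DI19-1 type Unigenes in each library, with non-trunking palms left of trunking palms, points for single libraries and a black line for the mean of each group. All non-trunking points of a Unigene lie below all its trunking points, with Unigene16887_All between 544 and 887 FPKM in non-trunking and between 1227 and 2301 FPKM in trunking palms.

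The ratio of these transcripts to each other varied less than their levels. The FPKM of CL7605.Contig1_All was 27.5%, 31.8% and 26.5% of that of Unigene16887_All in SN7, SN8 and SN9, against 22.7%, 25.6% and 26.9% in ST1, ST4 and ST5. For CL7605.Contig2_All the share was 6.92%, 8.95% and 6.69% in SN7, SN8 and SN9, against 6.63%, 9.13% and 7.95% in ST1, ST4 and ST5. The groups overlapped in both shares.

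The fourth Unigene of the DI19-1 type, Unigene25684_All, did not follow them. It is the longest member, its best match in the Nr database was a homolog 4-like protein of the date palm, and its level was low. It had 5.93, 3.95 and 5.90 FPKM in SN7, SN8 and SN9, against 4.10, 3.15 and 5.08 FPKM in ST1, ST4 and ST5. The groups overlapped, and the log2 fold change was 0.42 ± 0.32 (SE), or 0.17 without SN7 and 0.21 without ST4.

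The highest member outside the DI19-1 type was CL7542.Contig4_All of the DI19-2 type. It had 54.3, 45.5 and 44.4 FPKM in SN7, SN8 and SN9, against 35.1, 30.6 and 30.3 FPKM in ST1, ST4 and ST5. The groups did not overlap, and the log2 fold change was 0.67 ± 0.26 (SE), at an adjusted p of 0.470 by edgeR. The log2 value was 0.43 without SN7. CL7542.Contig3_All of the same cluster had 7.34, 10.28 and 10.60 FPKM in SN7, SN8 and SN9, against 5.30, 5.41 and 6.13 FPKM in ST1, ST4 and ST5. Among the tested members outside Unigene16887_All and CL7605 it had the smallest p, namely 0.317 after adjustment by edgeR. Its log2 fold change was 0.78 ± 0.20 (SE). CL7542.Contig1_All was less clear, with 25.4, 33.7 and 30.8 FPKM in SN7, SN8 and SN9, against 25.3, 27.2 and 15.9 FPKM in ST1, ST4 and ST5. Its groups overlapped in FPKM, and its log2 fold change of 0.46 was 0.26 without ST5.

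CL4844.Contig1_All, also of the DI19-2 type, had 56.3, 25.6 and 24.6 FPKM in SN7, SN8 and SN9, against 16.5, 19.9 and 17.8 FPKM in ST1, ST4 and ST5. SN7 stood far above the other palms here. The log2 fold change was 1.12 ± 0.45 (SE), at an adjusted p of 0.483 by edgeR, and it was 0.42 without SN7. CL4844.Contig4_All was highest in SN7 as well, at 6.49 FPKM against 1.92 and 2.87 FPKM in SN8 and SN9, while ST1, ST4 and ST5 had 2.23, 2.04 and 2.68 FPKM. Its log2 fold change of 0.85 became -0.02 without SN7. CL4844.Contig3_All had at most 1.57 FPKM and did not pass the filter on low counts. Unigene16287_All, the member with the weak match, had 9.42, 17.41 and 13.44 FPKM in SN7, SN8 and SN9, against 10.03, 11.27 and 10.05 FPKM in ST1, ST4 and ST5, and its groups overlapped in FPKM, with a log2 fold change of 0.41, or 0.19 without SN8.

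All 7 Unigenes of the DI19-4 type were contigs of the cluster CL2900. The rice protein DI19-4 is the one that takes part in the response to abscisic acid. CL2900.Contig3_All, the highest of them, had 33.4, 21.99 and 25.7 FPKM in SN7, SN8 and SN9, against 19.4, 18.8 and 18.7 FPKM in ST1, ST4 and ST5. The trunking palms were close to each other and lay below all non-trunking palms. Its log2 fold change was 0.61 ± 0.28 (SE), at an adjusted p of 0.545 by edgeR, and 0.26 without SN7. CL2900.Contig7_All had 20.2, 16.9 and 18.5 FPKM in SN7, SN8 and SN9, against 14.6, 10.8 and 12.9 FPKM in ST1, ST4 and ST5, with a log2 fold change of 0.61, or 0.40 without SN7. CL2900.Contig5_All had the largest positive value of the family, 1.49 ± 0.58 (SE), at an adjusted p of 0.472 by edgeR. It stood at 9.37, 4.14 and 3.59 FPKM in SN7, SN8 and SN9, against 1.24, 2.53 and 3.05 FPKM in ST1, ST4 and ST5, and its log2 fold change was 0.72 without SN7. The direction of CL2900.Contig4_All was not stable, since its log2 fold change of 0.13 turned to -0.34 without SN7 and to -0.02 without ST4, and was -0.01 with limma on log2(FPKM + 1). CL2900.Contig1_All and CL2900.Contig6_All had values of 0.62 and 0.24, or 0.37 without SN7 for the first and 0.16 without ST4 for the second. CL2900.Contig2_All had at most 0.88 FPKM, was not listed in SN8 and SN9, and did not pass the filter.

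The DI19-6 type had 1 Unigene, Unigene701_All, at 0.64, 3.34 and 0.47 FPKM in SN7, SN8 and SN9, against 0.82, 1.01 and 1.22 FPKM in ST1, ST4 and ST5. Only SN8 was high, and the log2 fold change of 0.59 turned to -0.74 without SN8. Another pair of Unigenes, Unigene3848_All and Unigene6001_All, carried the Di19 name in the Nt database alone and were not counted as members. Their levels did not exceed 3.91 and 0.87 FPKM.

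Of the 19 members, 17 passed the filter on low counts. Unigene16887_All and the contigs of CL7605 are left out of the counts that follow, because the family was chosen by the level of the first and the others share its type. Of the other 14, the quasi-likelihood test called 0 after adjustment, as did DESeq2, limma and the likelihood ratio test of edgeR. Their adjusted p ran from 0.317 to 0.940 with edgeR, and the smallest with DESeq2 was 0.145. At an unadjusted p under 0.05, 4 of the 14 stood higher and 0 lower in non-trunking palms, while 5.43% of all Unigenes tested were higher and 4.43% lower at this level. The count of higher members at this level was 1 without SN7, 1 without ST4, 2 without ST1 and 2 without ST5. It stayed at 4 without SN8 and without SN9. Of all tested, between 3.88% (without ST5) and 5.53% (without SN8) were higher in these fits. In CPM the palms of the groups did not overlap for 10 that were higher and 0 that were lower in non-trunking palms, against 8.71% and 8.55% of all tested. In FPKM, without the TMM factors, the counts were 7 and 0, against 7.07% and 8.93% of all tested. The members of a cluster share reads and sequence, so these counts are not counts of separate genes, and they were known in part when the family was chosen.

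Outside Unigene16887_All and the contigs of CL7605, the 14 tested members had log2 fold changes between 0.13 and 1.49, with a median of 0.61. The median of all Unigenes tested was 0.02, and 51.4% of them had a positive value. The number of positive values was 12 of 14 without SN7, 13 of 14 without SN8, without ST4 and with limma, and 14 of 14 without each of SN9, ST1 and ST5. The median of the 14 was 0.41 without SN7. Counts summed per cluster gave a log2 fold change of -1.06 for CL7605 (SE 0.34), 0.61 for CL7542 (0.21), 1.11 for CL4844 (0.45) and 0.56 for CL2900 (0.28). These sums took every contig of a cluster. CL7542 and CL4844 each had 4 contigs, of which 3 were members of the family.

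**Figure D2:**
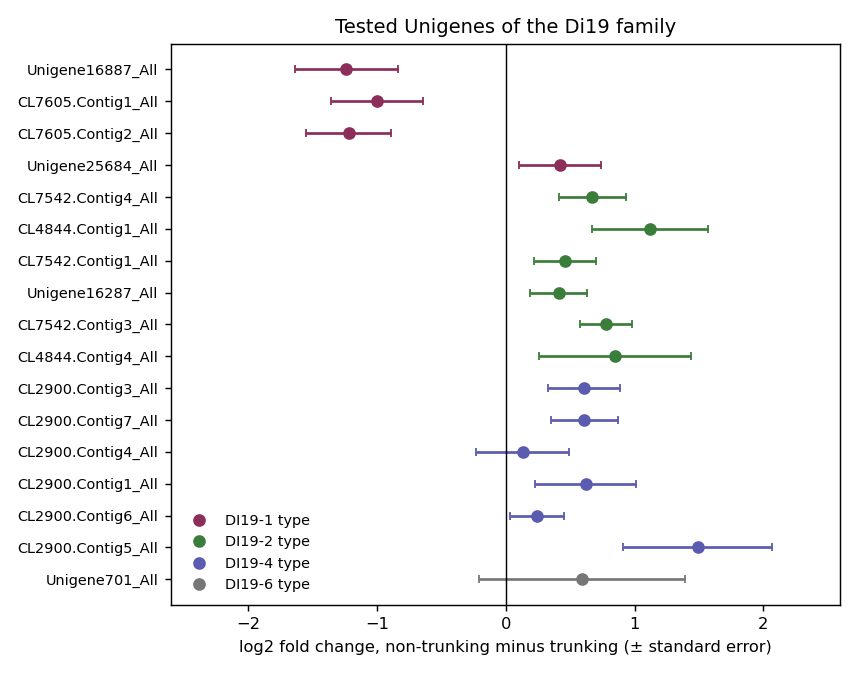
Log2 fold change (non-trunking minus trunking, from edgeR) of the 17 tested Unigenes of the family, with bars for the standard error and a colour for each type. Unigene16887_All and the contigs of CL7605 lie between -1.24 and -1.0, and the other 14 lie between 0.13 and 1.49.

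The share of each type in the family is given as a description, since it rests in large part on Unigene16887_All, the Unigene by which the family was chosen. This Unigene held 54.3%, 59.8% and 60.4% of the family's counts in SN7, SN8 and SN9, against 72.5%, 67.0% and 68.4% in ST1, ST4 and ST5. The DI19-1 type took 75.4%, 85.9% and 82.6% of the family's counts in SN7, SN8 and SN9, against 95.1%, 91.7% and 93.9% in ST1, ST4 and ST5. The DI19-2 type took 15.7%, 9.70% and 11.4% in SN7, SN8 and SN9, against 3.15%, 5.53% and 3.72% in ST1, ST4 and ST5. The DI19-4 type took 8.92%, 4.18% and 6.0% in SN7, SN8 and SN9, against 1.76%, 2.71% and 2.33% in ST1, ST4 and ST5. No share of the 3 types overlapped between the groups. Shares of 1 total depend on each other, so summed levels per type were also taken.

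The summed FPKM of the DI19-1 type was 980 ± 259 in non-trunking and 2271 ± 667 in trunking palms (SD, n = 3 each). That of the DI19-2 type was 141 ± 17.3 in non-trunking and 91.7 ± 7.47 in trunking palms (SD). That of the DI19-4 type was 76.4 ± 13.9 in non-trunking and 55.2 ± 3.29 in trunking palms (SD). The palms of the groups did not overlap in any of these sums, but in CPM the DI19-4 sums of SN8 (77.8) and ST1 (72.6) nearly met. Counts summed per Swiss-Prot entry gave a log2 fold change of 0.67 (SE 0.26) for DI19-2 and 0.56 (0.29) for DI19-4. Their adjusted p by edgeR were 0.464 and 0.592. The FPKM of the DI19-1 type was 2.92, 6.25 and 4.73 times that of the DI19-2 and DI19-4 types together in SN7, SN8 and SN9, against 19.7, 11.1 and 15.5 times in ST1, ST4 and ST5, a ratio that is set by the same Unigene to a large part. Without the DI19-1 type, DI19-2 made up 63.7%, 67.8% and 63.6% of the FPKM of DI19-2 and DI19-4 together in SN7, SN8 and SN9, against 62.6%, 65.3% and 59.1% in ST1, ST4 and ST5, and the groups overlapped.

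**Figure D3:**
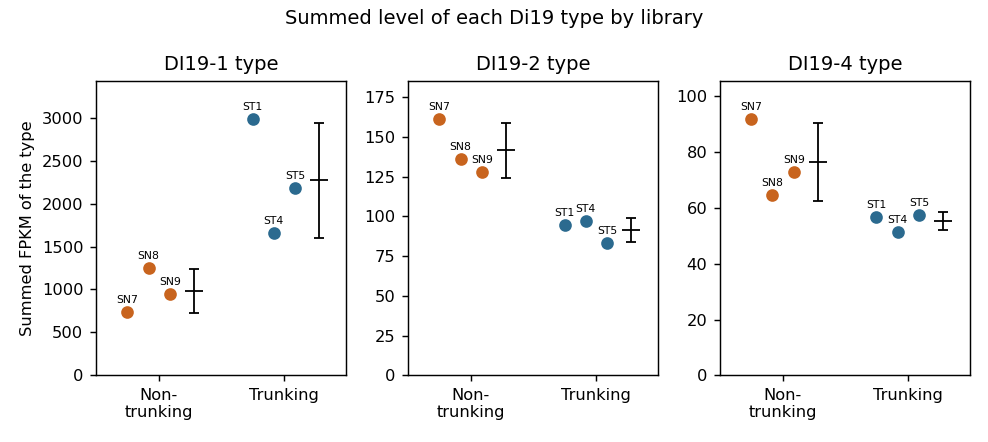
Summed FPKM of the DI19-1, DI19-2 and DI19-4 types in each library, with non-trunking palms left of trunking palms, points for single libraries and a bar for the mean and SD. The DI19-1 type averaged 980 FPKM in non-trunking and 2271 FPKM in trunking palms, and the DI19-2 and DI19-4 types were higher in all non-trunking palms than in any trunking palm. Neither DI19-2 nor DI19-4 passed the edgeR test after adjustment when counts were summed per Swiss-Prot entry.

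Unigenes of 6 lists related to Di19 proteins were taken by their Swiss-Prot names. The lists of water loss genes and of other Cys2/His2 zinc finger proteins share a theme or a kind with Di19. Their genes were not taken as known partners. After adjustment the quasi-likelihood test called 0 Unigenes of all 6 lists together, limma 0 and the likelihood ratio test of edgeR at most 9. Among Unigenes that edgeR tested, DESeq2 called 2 of 50 in the pathogenesis-related list and 4 of 49 in the abscisic acid list. It called 5 of 81 in the light list, 1 of 72 in the zinc finger list and 0 in the others. Of all Unigenes with an adjusted p by DESeq2, 2.22% were called. The counts below are those with an unadjusted p under 0.05, to be read against 5.43% higher and 4.43% lower among all Unigenes tested.

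Upstream of Di19 stand the calcium-dependent protein kinases, of which 54 of 66 Unigenes were tested. Non-trunking palms had 2 of these higher and 0 lower, and the median log2 fold change was 0.05, or -0.03 with library size alone as scaling, and lay between -0.17 without SN7 and 0.20 without ST5. The most abundant was CL5917.Contig1_All, matched to calcium-dependent protein kinase 10, with 23.5, 27.0 and 27.0 FPKM in SN7, SN8 and SN9, against 37.7, 25.1 and 35.3 FPKM in ST1, ST4 and ST5. CL997.Contig1_All, matched to kinase 4 of potato, had 49.7, 11.0 and 15.4 FPKM in SN7, SN8 and SN9, against 13.3, 14.7 and 42.5 FPKM in ST1, ST4 and ST5, and CL997.Contig8_All had the same pattern. SN7 and ST5 were high in this cluster and the other palms low, and the groups overlapped.

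The genes that *Arabidopsis* Di19 activates belong to the pathogenesis-related classes PR1 (secreted antimicrobial proteins), PR2 (glucanases) and PR5 (thaumatin-like proteins). The list took Unigenes of these kinds by name alone, and they were not taken as known targets of Di19. Of 50 tested Unigenes, 9 (18%) stood higher and 1 (2.0%) lower in non-trunking palms, and the median log2 value was 0.30. The 9 came from 7 clusters or single Unigenes, and 7 of them were highest in SN8. Without SN8, 7 stood higher at this level, against 5 without ST1 and 4 without ST4. The median was 0.55 without ST1, 0.15 without ST4 and 0.17 without SN7. Unigene26161_All, matched to a PR1 protein of asparagus, had 27.6, 87.0 and 42.9 FPKM in SN7, SN8 and SN9, against 19.2, 7.15 and 19.6 FPKM in ST1, ST4 and ST5. Its groups did not overlap, and its log2 fold change was 1.78 ± 0.55 (SE), at an adjusted p of 0.386 by edgeR. The most abundant glucanase, Unigene13243_All, had 71.9, 46.8 and 55.0 FPKM in SN7, SN8 and SN9, against 49.4, 74.4 and 34.6 FPKM in ST1, ST4 and ST5, and its groups overlapped. CL4645.Contig2_All, another glucanase, had 27.6, 9.62 and 63.1 FPKM in SN7, SN8 and SN9, against 25.2, 26.0 and 10.3 FPKM in ST1, ST4 and ST5. The thaumatin-like Unigene CL1458.Contig1_All, chosen after its values were seen, had 48.2, 38.8 and 38.2 FPKM in SN7, SN8 and SN9, against 6.83, 10.65 and 11.26 FPKM in ST1, ST4 and ST5. Its log2 fold change was 2.22 ± 0.30 (SE), at an adjusted p of 0.183 by edgeR.

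Genes named for water loss had little direction in common. Of 40 tested Unigenes of dehydration-responsive and late embryogenesis abundant (LEA) proteins, which protect cells as they dry, 2 stood higher and 0 lower in non-trunking palms, and the median log2 value was 0.01. This median was -0.11 with library size alone as scaling and lay between -0.34 without SN7 and 0.50 without ST5. The LEA protein CL8070.Contig1_All had 263, 233 and 167 FPKM in SN7, SN8 and SN9, against 224, 252 and 371.5 FPKM in ST1, ST4 and ST5. Unigene10511_All, matched to the dehydration-responsive element-binding factor 1G, varied most, with 231, 41.9 and 4.88 FPKM in SN7, SN8 and SN9, against 53.9, 3.95 and 215 FPKM in ST1, ST4 and ST5. Unigene6967_All, with the same match, was also highest in SN7 (154 FPKM) and ST5 (151 FPKM) and lowest in SN9 (11.1 FPKM) and ST4 (20.7 FPKM).

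Abscisic acid receptors, the SnRK2 kinases that act after them and the ABI transcription factors had 49 tested Unigenes. Non-trunking palms had 4 (8.16%) of these higher and 7 (14.3%) lower, and the median log2 value was 0.10, or -0.11 without SN8 and -0.01 with limma on log2(FPKM + 0.1). The lower count was 4 without SN7, 4 without SN9 and 5 without ST5, but 10 (20.4%) without SN8, against 6.49% of all tested. The higher count was 9 without ST1, 8 without ST4 and 7 without SN8. The SnRK2 kinase Unigene12757_All, matched to SAPK9, had 30.0, 48.4 and 40.9 FPKM in SN7, SN8 and SN9, against 54.9, 61.2 and 71.5 FPKM in ST1, ST4 and ST5. Its log2 fold change was -0.61 ± 0.22 (SE), at an adjusted p of 0.447 by edgeR. CL3394.Contig5_All, matched to SAPK10, had 29.2, 50.3 and 39.5 FPKM in SN7, SN8 and SN9, against 54.4, 60.7 and 63.6 FPKM in ST1, ST4 and ST5. In both kinases the palms of the groups did not overlap. CL161.Contig2_All, matched to SAPK7 and as abundant, had overlapping groups and a log2 fold change of 0.10. By Swiss-Prot name, 6 of the 7 lower ones were SnRK2 kinases (SAPK7, SAPK9 and SAPK10) and 1 an ABI5-like factor. The 7 came from 5 clusters or single Unigenes, and 6 of them were highest in ST5. The 4 higher ones came from 2 clusters or single Unigenes, and 3 of them were highest in SN7. They were 3 contigs of the cluster CL6667, matched to SAPK1 or SAPK2, and the receptor PYL1. Of these CL6667.Contig3_All, a SAPK2, was chosen after its values were seen. It had 41.7, 33.5 and 41.5 FPKM in SN7, SN8 and SN9, against 19.9, 20.5 and 20.0 FPKM in ST1, ST4 and ST5, with a log2 fold change of 1.03 ± 0.22 (SE), at an adjusted p of 0.243 by edgeR.

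The list of red and blue light signalling, the pathway of HRB1, had 81 tested Unigenes. Non-trunking palms had 13 (16.0%) of these higher and 3 (3.70%) lower, and the median log2 value was 0.14, or 0.27 without ST1 and 0.06 without ST4. The 13 came from 9 clusters or single Unigenes, and 8 of them were highest in SN9. The higher count was 10 without SN9, 10 without ST5 and 15 without SN8. The lower count was 5 without SN9 and 5 without ST4. CL5765.Contig6_All, matched to SPA1-RELATED 3, which works with the ubiquitin ligase COP1 to hold back light responses in the dark, had 77.8, 46.0 and 64.6 FPKM in SN7, SN8 and SN9, against 34.5, 71.2 and 27.2 FPKM in ST1, ST4 and ST5. The blue light receptor cryptochrome-1, CL2146.Contig3_All, had 38.2, 52.1 and 57.1 FPKM in SN7, SN8 and SN9, against 55.6, 40.2 and 29.5 FPKM in ST1, ST4 and ST5. CL2146.Contig5_All, with the same match, had 30.2, 40.5 and 32.4 FPKM in SN7, SN8 and SN9, against 34.4, 15.9 and 18.5 FPKM in ST1, ST4 and ST5. The groups overlapped in all of these. The Unigenes at an unadjusted p under 0.05 in this list were all looked at after their values were seen. The 13 higher ones were 4 of cryptochrome DASH, a flavoprotein related to DNA photolyases, 3 of HY5 or HY5-like, transcription factors that promote light responses, 2 of phytochrome C, and 1 each of COP1, SPA1-RELATED 3, cryptochrome-1 and a phytochrome A-associated F-box protein. The 3 lower ones were 2 contigs of the red light receptor phytochrome B and 1 Unigene of phytochrome A. CL2959.Contig1_All, a cryptochrome DASH, had 20.4, 19.7 and 29.3 FPKM in SN7, SN8 and SN9, against 5.03, 6.22 and 2.81 FPKM in ST1, ST4 and ST5, with a log2 fold change of 2.36 ± 0.31 (SE), at an adjusted p of 0.183 by edgeR. CL4395.Contig3_All, a HY5, had 17.5, 25.3 and 17.2 FPKM in SN7, SN8 and SN9, against 8.95, 8.22 and 4.43 FPKM in ST1, ST4 and ST5. CL7566.Contig3_All, a phytochrome B, had 4.54, 8.24 and 13.84 FPKM in SN7, SN8 and SN9, against 24.05, 15.06 and 21.53 FPKM in ST1, ST4 and ST5, with a log2 fold change of -1.21 ± 0.37 (SE), at an adjusted p of 0.388 by edgeR. The palms of the groups did not overlap in these 3 Unigenes.

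Other zinc finger proteins of the Cys2/His2 kind had 72 tested Unigenes, with 3 higher and 3 lower in non-trunking palms, and the median log2 value was -0.25, or -0.06 without ST5 and -0.13 without SN9. The counts ran from 1 to 6 higher and from 2 to 5 lower when a library was left out. The most abundant were contigs of the cluster CL8245, matched to the stress factor ZAT10 or to Zinc finger protein 1 of wheat. CL8245.Contig3_All had 546, 348 and 107 FPKM in SN7, SN8 and SN9, against 816.5, 121 and 768 FPKM in ST1, ST4 and ST5. CL8245.Contig2_All had 497, 268 and 87.4 FPKM in SN7, SN8 and SN9, against 671, 101 and 665 FPKM in ST1, ST4 and ST5. CL8245.Contig1_All had 460, 153 and 39.4 FPKM in SN7, SN8 and SN9, against 443, 35.8 and 703 FPKM in ST1, ST4 and ST5. SN9 and ST4 were lowest throughout and SN7, ST1 and ST5 highest, so these factors varied widely between palms of 1 phenotype, and their groups overlapped.

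**Figure D4:**
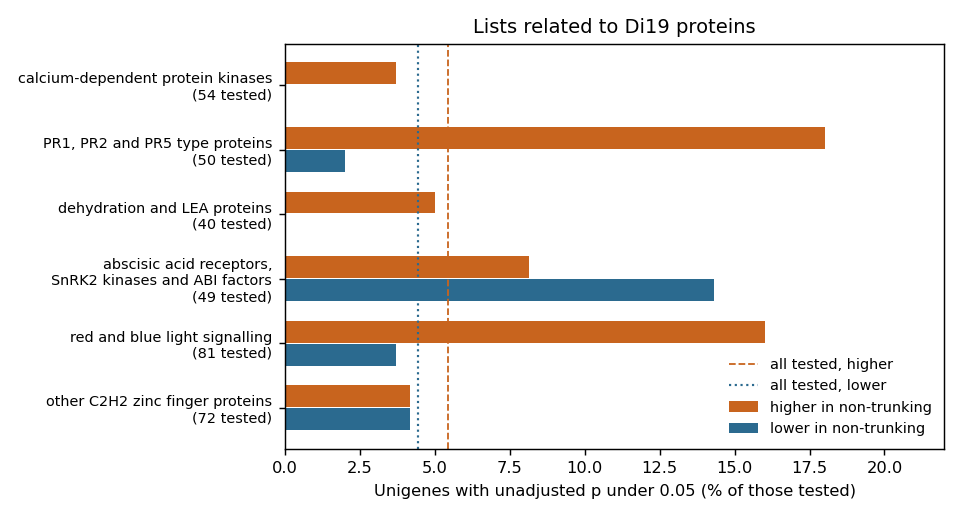
Percent of the tested Unigenes of each related list that passed an unadjusted p of 0.05 with edgeR and were higher (orange) or lower (blue) in non-trunking palms, with the values of all tested Unigenes as a dashed line (5.43%, higher) and a dotted line (4.43%, lower). The bars of the PR proteins (18%) and of light signalling (16.0%) are longest on the higher side, and that of abscisic acid signalling (14.3%) on the lower side.

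The Unigenes whose pattern was most like that of Unigene16887_All were taken from 30681 tested Unigenes with a Swiss-Prot match outside the family, by Pearson's r over the 6 libraries on log2(CPM + 1). The 5 highest were CL2354.Contig1_All, matched to the RNA-processing protein CLP1 (r = 0.9987), Unigene7996_All, a glutathione S-transferase at 3.64 FPKM or less (0.9972), CL2299.Contig6_All, the receptor-like kinase PERK2 (0.9948), CL1650.Contig1_All, the transcription factor WRKY4 (0.9943), and CL2825.Contig5_All, a CCCH zinc finger protein (0.9924). CL2354.Contig1_All had 15.6, 21.6 and 20.9 FPKM in SN7, SN8 and SN9, against 37.1, 27.7 and 31.0 FPKM in ST1, ST4 and ST5. The most opposite were CL2926.Contig4_All, an SH3 domain protein (-0.9991), CL5740.Contig1_All, a formin (-0.9944), CL9645.Contig1_All, beta carbonic anhydrase 5 (-0.9941), Unigene7458_All, fatty-acid-binding protein 1 (-0.9929), and CL4122.Contig3_All, a WAT1-related protein (-0.9921). Unigene7458_All had 44.4, 44.0 and 58.9 FPKM in SN7, SN8 and SN9, against 21.1, 41.7 and 25.8 FPKM in ST1, ST4 and ST5. With 6 libraries and this many Unigenes high values of r are found for many, and the points share the libraries and their scaling. On log2(FPKM + 1), 0 of the 5 most like and 0 of the 5 most opposite were the same, so the names depend on the scale.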

How the data were processed

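The authors sequenced leaf RNA (BGISEQ-500), assembled the reads with Trinity, clustered the sequences with TGICL, mapped with Bowtie2 and quantified with RSEM, with no version stated in the sources used here. The authors deposited, per library, the expected count of each Unigene, an estimated count without normalization, and its FPKM, scaled by RSEM for length and library total. Unigenes under 0.01 FPKM are not listed and were taken as 0. Unigene lengths (nt) are as deposited.

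The 6 files were joined with Python 3.11.15 and pandas 2.3.3. Palms were grouped by the phenotype label. With depth about equal, the precision rests on the spread between palms, and for members with few counts also on the counting. Expected counts were rounded. After filterByExpr and TMM scaling they were tested (quasi-likelihood test, two-sided, edgeR 4.0.16 in R 4.3.3), and p-values were adjusted by Benjamini-Hochberg over all Unigenes tested (threshold 0.05). The standard error (SE) is the absolute log2 fold change divided by the square root of F. CPM are TMM-scaled. DESeq2 1.42.0, the likelihood ratio test of edgeR and limma 3.58.1 on log2(FPKM + 1) or log2(FPKM + 0.1) served as alternatives, beside other scalings, no filter, sums per cluster and leaving out each library. The code was tested on simulated data, with less spread than between these palms and larger changes than in any member. That run does not show which changes the main test can call here.

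The members and lists were chosen with earlier results of these data known. Named were all members, the 3 Unigenes of highest mean FPKM in each list, and the 5 most like and 5 most opposite to Unigene16887_All. Of the light and abscisic acid lists, Unigenes at an unadjusted p under 0.05 were also described, and CL1458.Contig1_All, CL6667.Contig3_All, CL2959.Contig1_All, CL4395.Contig3_All and CL7566.Contig3_All were named after their values were seen. The Nt match and the sums per Swiss-Prot entry were added after the data were seen. A table of the study calls the non-trunking libraries trunking, and the sample labels were followed. Sequences were not used here.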

Additional observations from a re-analysis of the deposited data

How the results depend on the processing

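The log2 fold change of Unigene16887_All lay between -1.26 with library size alone and -1.23 with RLE scaling. It lay between -1.47 without ST4 and -0.92 without ST1. Its groups did not overlap, so leaving out a library could not turn its sign, and the kept sign is no support for the difference. Of all Unigenes, the quasi-likelihood test called 0 at an adjusted p under 0.05, DESeq2 1175, the likelihood ratio test 771 and limma on log2(FPKM + 1) called 4. For the related lists the count was 0, against at most 13 with DESeq2 and at most 9 with the likelihood ratio test. The other members gave 0 under all of these, also when counts were summed per cluster or per Swiss-Prot entry. The sign turned in 3 members. CL2900.Contig4_All had -0.01 with limma on log2(FPKM + 1) and -0.02 on log2(FPKM + 0.1), and lay between -0.34 and 0.36 when libraries were left out. CL4844.Contig4_All lay between -0.02 and 1.2 and Unigene701_All between -0.74 and 1.03 when libraries were left out. The cause was not tested. The family held 19 Unigenes also by Nr, KEGG, KOG and InterPro names, and 21 with Nt names. Of the 5 Unigenes most like Unigene16887_All, 3 were shared with log2(CPM + 0.1), and of the 5 most opposite 4. An exact permutation of 3 palms against 3 cannot give a p below 0.1, and members under 1 FPKM rest on few counts.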
